A study of Rattus norvegicus with 8 samples.

Results

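The genes described here store, carry, take up and sense iron: the mitochondrial ferritin Ftmt, the cytosolic ferritin subunits Fth1 and Ftl1, transferrin (Tf), the transferrin receptor Tfrc, and the iron regulatory proteins Ireb2 and Aco1. They were chosen by name, as the probes whose accession maps to 1 of these 7 symbols in the rat RefSeq gene table, and with the difference between aged and young arrays already known. The rule found 9 of 30367 probes and 7 of 15154 named genes. The difference between the ages is therefore given as a description of each of the 7 genes. Where limma calls among the 7 are counted, they are not read as a test of them.

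Iron enters most cells when transferrin, its carrier in plasma and other body fluids, binds the transferrin receptor and is taken into endosomes. Iron that is not used at once is stored in ferritin, a hollow shell of heavy and light subunits, of which the heavy subunit oxidises the metal. Mitochondrial ferritin comes from an intronless gene, forms a similar shell inside mitochondria, and is known for its high level in testis. Iron regulatory proteins bind stem-loops in mRNAs when iron is scarce, which blocks translation of cytosolic ferritin and stabilises the mRNA of the transferrin receptor. In the testis, Sertoli cells secrete transferrin, which passes iron to germ cells behind the blood-testis barrier.

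Aged cells came from Sprague Dawley rats of 21 months and young cells from rats of 4 months, with 4 one-colour Agilent arrays per age. Rats of both ages carried a GFP transgene limited to germ cells, whose promoter the labels do not name, and no other treatment is given. Testes were dissociated, and cells positive for CD9, a tetraspanin found on spermatogonia and on other cells, were collected by flow cytometry. Each array was hybridised with Cy3-labelled RNA amplified from 18 ng, and the labels do not say whether the arrays of an age came from separate animals. Levels below are log2 processed signals minus the 75th percentile of the probes of the same array, so that a value of 0 is that percentile and a difference of 1 is a doubling. Levels of a single gene are compared between arrays for 1 probe, not between probes. Sums over a marker list add the linear signals of several probes, so the brightest probes weigh most in them.

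All arrays shared 1 slide and 1 scan, and aged and young arrays lay in different rows of the slide, so that row and age cannot be told apart. The 75th percentile was 331 to 524 intensity units on aged arrays and 326 to 503 on young arrays, and 63.0% to 72.0% of probes were well above background. Young replicate 1 stood apart from the other young arrays. Over 15 spermatid markers its mean level, each gene centred over the 8 arrays, was −0.53, against 0.54 to 1.04 in the other young arrays and −1.15 to −0.09 in aged arrays. Cd9 itself averaged −1.46 ± 0.30 on aged and −1.30 ± 0.12 on young arrays (SD, n = 4 each). Of 15 markers of undifferentiated spermatogonia 12 had a probe and all of these were measured, and of 15 spermatid markers 14 were well above background on every array, so RNA of spermatid genes was present as well as that of spermatogonia. In such bulk RNA, fewer cells of a type and less RNA per cell cannot be told apart.

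The 250 bases upstream of the annotated start are shown for Ftmt, the 1 gene of the 7 whose aged and young values did not overlap, and for Tf, whose values varied most within the ages. The sequences are those of RefSeq in assembly GRCr8, at chr18:47956985-47957234 on the plus strand for Ftmt and at chr8:112695377-112695626 on the minus strand for Tf. They run 5′ to 3′ up to the base before the start. Capitals mark TGACG on either strand (CGTCA on the other) in Ftmt and TATAAA in Tf.
Ftmt: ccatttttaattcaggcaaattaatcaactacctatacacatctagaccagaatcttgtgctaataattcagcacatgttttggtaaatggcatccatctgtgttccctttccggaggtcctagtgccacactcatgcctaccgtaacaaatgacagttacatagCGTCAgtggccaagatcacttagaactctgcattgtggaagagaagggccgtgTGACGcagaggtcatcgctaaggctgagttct
Tf: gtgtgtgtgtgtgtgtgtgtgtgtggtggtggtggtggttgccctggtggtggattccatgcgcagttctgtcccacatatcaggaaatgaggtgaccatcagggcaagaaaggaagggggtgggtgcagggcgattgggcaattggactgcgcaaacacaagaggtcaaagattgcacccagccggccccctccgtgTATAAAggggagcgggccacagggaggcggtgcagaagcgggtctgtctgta
TGACG is the half-site of the cAMP response element, which factors of the CREB and CREM family bind, and TATAAA is the TATA box. Both strands of the same window were searched in 33469 rat promoters. TGACG occurred in 18.2% of them, with 2 matches in Ftmt and 1 each in Tfrc and Ireb2. TATAAA occurred in 12.9%, with 1 match, in Tf, among the 5 of the 7 genes that had an entry. The GC box GGGCGG occurred in 30.5%, with 3 matches in Aco1 and 2 in Ireb2. These matches describe letters and not binding.

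The mitochondrial ferritin Ftmt was lower in aged cells. Its probe (A_64_P063933, 2 spots per array) read −3.14, −3.80, −3.39 and −3.17 in aged replicates 1 to 4, against −2.56, −2.20, −1.95 and −1.69 in young replicates 1 to 4. Every aged array lay below every young array, with a gap of 0.57 between the closest pair, and young replicate 1 was the young array nearest to the aged ones. The means were −3.38 ± 0.31 in aged and −2.10 ± 0.37 in young cells (SD, n = 4 each). The difference was −1.27 ± 0.21 (log2, SE of the limma fit), or 2.42-fold lower. In the limma fit over all genes, 0.156% of the 10236 genes tested were called lower in aged cells (Benjamini-Hochberg adjusted p under 0.05). In either direction 0.655% were called, and Ftmt was the only 1 of the 7 genes called. That call did not hold in all settings. No gene, Ftmt included, was called lower without scaling, with dim probes kept or in the replicate block setting. The same was true when any single array except young replicate 1 was left out. Groups did not overlap for 4.12% of all genes tested as lower and for 14.3% in either direction, against 1 of the 7 genes. Since the genes were chosen with this contrast known, nothing is read from these counts.

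**Figure D1:**
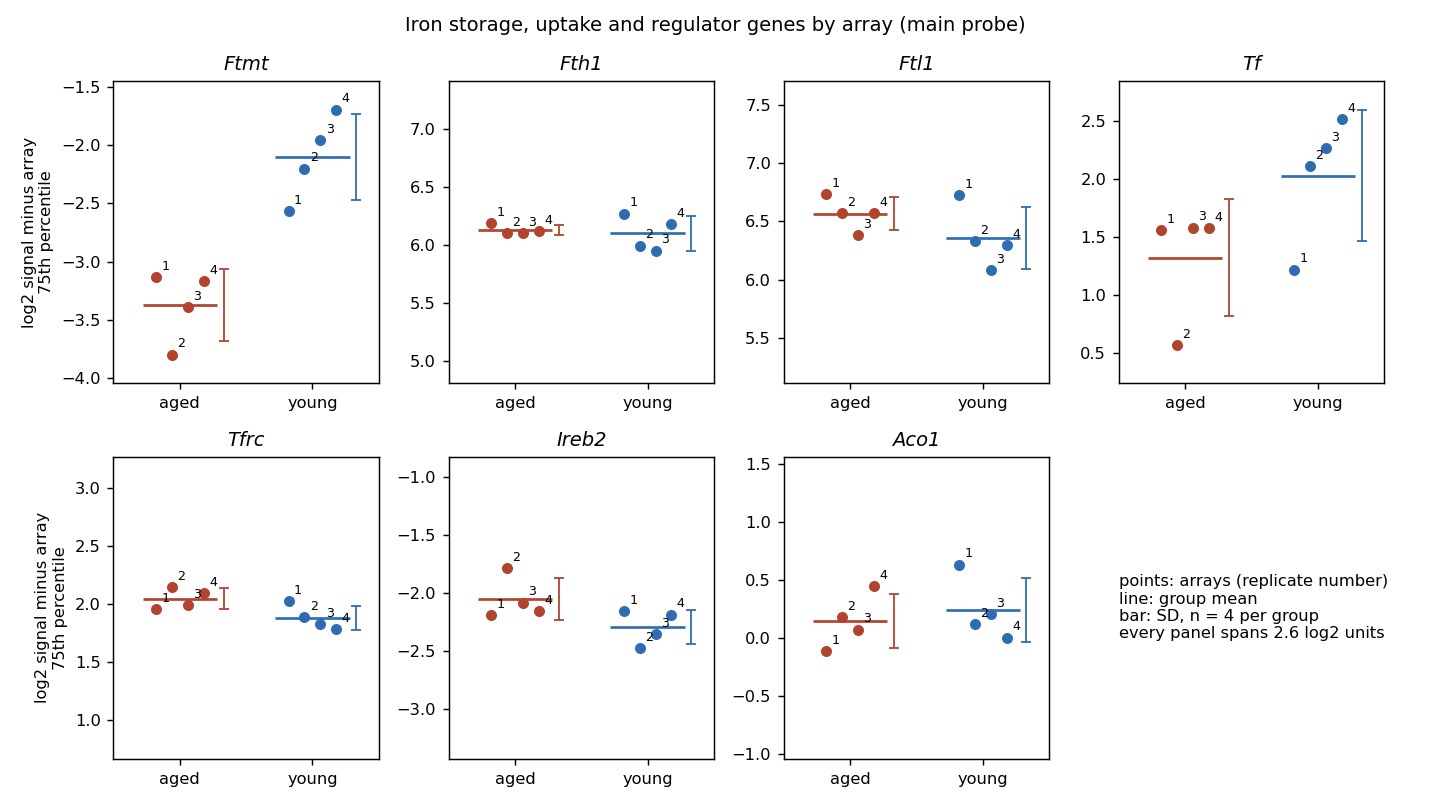
Log2 processed signal minus the 75th percentile of the array, for the main probe of each of the 7 iron genes, with a point per array (numbered by replicate), the group mean as a line and the SD as a bar (n = 4 per group, aged in red at the left, young in blue at the right). Ftmt separates the ages, Tf has 1 low aged and 1 low young array, and the other 5 genes overlap between the ages.

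Ftmt was a dim probe, and the size of its difference varied between settings. Its processed signal was 37.6, 25.8, 37.8 and 58.3 intensity units in aged replicates 1 to 4, against 55.1, 87.6, 130 and 127 in young replicates 1 to 4. On this linear and unscaled signal the groups overlap, because aged replicate 4, the array with the highest 75th percentile, exceeded young replicate 1. The raw spot signal was 67.3 to 104 on aged arrays and 96.5 to 179 on young arrays, above a local background of 27.0 to 30.0 on both. The probe was well above background on all 8 arrays. Its 2 spots differed most on young replicate 1, where the SD between spots was 0.53 on the log2 scale, while it was at most 0.28 on the other arrays. With normexp background correction, which also adds an offset of 50, the difference was −0.65 after 75th percentile scaling and −0.60 after quantile scaling. It was −1.12 with quantile scaling of the processed signal, and −1.43 without young replicate 1. All 23 alternative settings gave a negative difference for Ftmt. Some of them could not alter it, since Ftmt has a single probe that passed the filter. It stayed at −1.27 when only the filter, the choice among probes, the replicate block or the eBayes options changed.

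Markers of other cells also differed between the arrays. The summed signal of the 15 spermatid markers was 249 to 505 times the array's 75th percentile in aged and 341 to 839 times in young cells, and all 15 had a negative difference, with 0 called. Tnp1 and Prm1, nuclear proteins of late spermatids, averaged 6.86 and 6.64 in aged and 7.40 and 7.30 in young cells. The 13 markers of peritubular myoid and stromal cells, 11 of them tested, summed to 1.89 to 3.91 in aged and 3.21 to 13.1 in young cells. All 11 had a negative difference, 1 was called lower, against 0.156% of all genes tested, and Lum was not well above background on any array. Mean centred levels of this list were −1.36 to −0.31 on aged arrays, −0.59 in young replicate 1 and 1.05 to 1.22 in the other young arrays. In young replicate 1 both lists thus read within their range on aged arrays. Markers of undifferentiated spermatogonia summed to 11.6 to 12.2 in aged and 12.9 to 17.0 in young cells. Of the 12 tested, 10 had a negative difference and 0 were called. Their centred mean was −0.23 to −0.10 on aged arrays, 0.32 in young replicate 1 and 0.03 to 0.10 in the other young arrays. Most spermatocyte markers went the other way. Of the 15 tested, 10 had a positive and 5 a negative difference, with a median of 0.75. Of these 15, 8 were called higher, against 0.498% of all genes tested. Tex101 averaged 4.61 in aged and 3.86 in young cells, whereas Ldhc averaged 3.25 in aged and 4.19 in young cells. The summed signals were 73.6 to 86.6 in aged and 52.2 to 76.4 in young cells. Without young replicate 1 Ftmt averaged −1.95 ± 0.25 in young cells (SD, n = 3). The part of RNA from any of these cells in the difference of Ftmt was not tested.

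**Figure D2:**
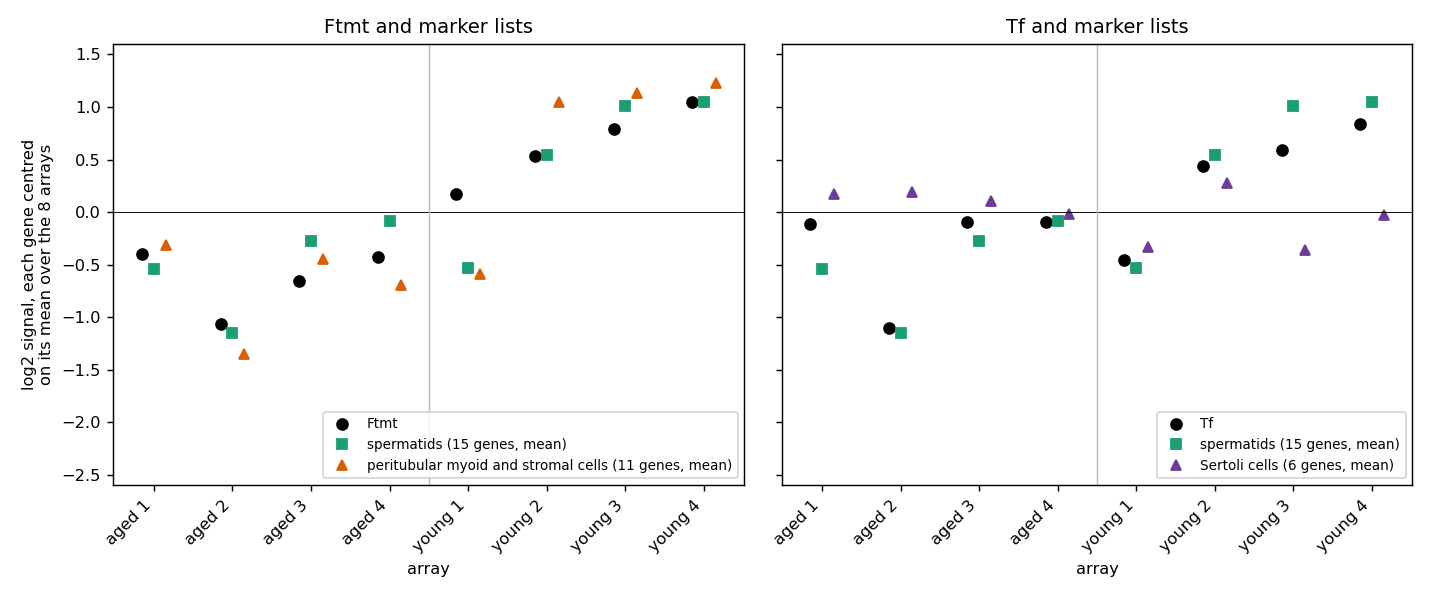
Centred log2 signal per array (each gene minus its mean over the 8 arrays) of Ftmt beside the mean of the spermatid and of the myoid and stromal markers, and of Tf beside the spermatid and Sertoli cell markers. In young replicate 1 the spermatid mean is −0.53 and the myoid and stromal mean is −0.59, both within their range on aged arrays. Wt1, Gata4 and Cldn11 failed the filter on dim probes and are not in the Sertoli mean.

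For both cytosolic ferritins the aged and young values overlapped. Fth1, the subunit with ferroxidase activity, read 6.19, 6.10, 6.10 and 6.12 in aged replicates 1 to 4, against 6.27, 5.99, 5.95 and 6.18 in young replicates 1 to 4 (A_64_P075640, 1 spot). The aged values lay inside the range of the young ones. The means were 6.13 ± 0.04 and 6.10 ± 0.15 in aged and young cells (SD, n = 4 each), with a difference of 0.03 ± 0.11 (SE). The other Fth1 probe (A_43_P13974, 2 spots) gave means of 5.92 ± 0.04 and 5.91 ± 0.15, a difference of 0.007. Of the 23 alternatives, 15 gave a positive and 8 a negative difference for Fth1, from −0.42 with spike-in scaling to 0.18 with median scaling.

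Ftl1, the light subunit that promotes mineral formation inside the shell, read 6.74, 6.57, 6.38 and 6.57 in aged replicates 1 to 4, against 6.73, 6.33, 6.08 and 6.30 in young replicates 1 to 4 (A_64_P004348). Aged replicates 1, 2 and 4 and young replicate 1 were the high arrays, and the groups overlapped. The means were 6.57 ± 0.14 in aged and 6.36 ± 0.27 in young cells (SD, n = 4 each), a difference of 0.21 ± 0.15 (SE). The median of all genes tested was 0.11 on the same scale. The difference was 0.33 without young replicate 1, 0.01 with quantile scaling and −0.25 with spike-in scaling. Within an array, Ftl1 minus Fth1, centred over the 8 arrays, was 0.20, 0.12, −0.07 and 0.10 in aged replicates 1 to 4, against 0.11, −0.01, −0.22 and −0.23 in young replicates 1 to 4. This ratio needs no scaling between arrays, and it averaged 0.18 higher in aged cells with overlapping groups. The RefSeq gene table names 14 Ftl1 and 5 Fth1 pseudogenes and 7 further Ftl1-like genes, so how much of these signals comes from other copies is uncertain.

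Transferrin had the widest spread of the 7 genes. Tf read 1.56, 0.57, 1.58 and 1.58 in aged replicates 1 to 4, against 1.22, 2.11, 2.27 and 2.51 in young replicates 1 to 4 (A_64_P044757). Aged replicates 1, 3 and 4 lay close together, aged replicate 2 lay about 1 log2 unit below them, and young replicate 1 lay below those 3 aged arrays. The groups therefore overlapped. The means were 1.32 ± 0.50 in aged and 2.03 ± 0.56 in young cells (SD, n = 4 each), a difference of −0.70 ± 0.32 (SE). The processed signals were 975, 536, 1190 and 1564 in aged replicates 1 to 4, against 760, 1739, 2423 and 2335 in young replicates 1 to 4. The SD between the 2 spots of an array was at most 0.09 (log2), which covers spot noise only.

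The size of the Tf difference rested on 2 arrays. Leaving out young replicate 1 gave −0.97, and leaving out aged replicate 2 gave −0.45. Without young replicate 1 the other young arrays averaged 2.30 ± 0.20 (SD, n = 3), and no aged value reached them. That left 4 of the 7 genes with separated groups, Ftmt and Tf lower and Ftl1 and Tfrc higher in aged cells. Of all genes tested in that setting 46.3% were separated, 29.9% as higher and 16.5% as lower. The limma fit called 2 of the 7 genes there, against 36.9% of all genes. Nothing is read from these counts either, since the genes were chosen with the contrast between the ages known. All 23 alternatives gave a negative difference for Tf. As for Ftmt, those that changed only the filter, the choice among probes, the replicate block or the eBayes options could not alter it.

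Sertoli cells, known as a testicular source of transferrin, were followed by their markers. Of 14 Sertoli markers 13 had a probe and 6 were tested, of which 5 had a positive difference. Of these 6, 1 was called higher, against 0.498% of all genes tested. Their summed signal was 135 to 197 in aged and 112 to 134 in young cells, most of it from Shbg. Gdnf was not well above background on any array, while Wt1, Gata4 and Cldn11 were so on 6 of 8 arrays, the exceptions being aged replicate 2 and young replicate 1, the 2 arrays with the lowest Tf. Wt1 read −6.16 in aged replicate 2 and −6.53 in young replicate 1. It read −3.81 to −2.73 in the other aged arrays and −3.70 to −3.13 in the other young arrays. Clu, a secreted glycoprotein abundant in Sertoli cells, was lowest in the same 2 arrays, at 1.95 in aged replicate 2 and 1.54 in young replicate 1. Other markers of the list went the other way in aged replicate 2, which was the highest of the 8 arrays for Shbg (7.57), Inhbb (−0.16), Inha (−0.04) and Rhox5 (−0.76). The centred mean of the 6 tested Sertoli markers was 0.19 in aged replicate 2, the highest aged array. It was −0.33 in young replicate 1 and −0.36 to 0.27 in the other young arrays. Wt1, Gata4 and Cldn11 are not in this mean. They failed the filter because they were not well above background in aged replicate 2 and young replicate 1. Their signal is therefore not part of the mean. Dhh, which passed the filter, read −4.57 in aged replicate 2, the highest aged value. It read −4.30 in young replicate 1, within the range of the young arrays (−5.60 to −2.83). Spermatid markers were also low in both arrays (centred means of −1.15 and −0.53). So were the 4 tested Leydig markers, at −0.89 in aged replicate 2 and −0.87 in young replicate 1. They were 0.007 to 0.51 in the other aged and −0.06 to 0.64 in the other young arrays. The 7 tested red blood cell markers read −1.05 and −0.76, against 0.31 to 0.33 in the other aged and 0.25 to 0.34 in the other young arrays. Low signal in these 2 arrays was thus not particular to Sertoli markers. The part of these cells in the level of Tf was not tested.

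The transferrin receptor varied little. Tfrc read 1.95, 2.15, 1.99 and 2.09 in aged replicates 1 to 4, against 2.02, 1.89, 1.83 and 1.79 in young replicates 1 to 4 (A_44_P214811). Young replicate 1 was the only young array within the range of the aged ones. The means were 2.05 ± 0.09 in aged and 1.88 ± 0.10 in young cells (SD, n = 4 each), a difference of 0.16 ± 0.10 (SE). A second, dimmer Tfrc probe (A_44_P313767) read −2.09 to −1.72 in aged and −2.40 to −1.75 in young cells, a difference of 0.26 ± 0.18 (SE from the group SDs). Both probes placed young replicate 1 above the other young arrays. The difference of the first probe was 0.32 with median scaling, 0.06 with quantile scaling and −0.29 with spike-in scaling, against medians of all genes of 0.26, 0.11 and −0.35 in those settings.

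Ireb2 encodes the iron regulatory protein that is degraded when iron is plentiful. It read −2.19, −1.78, −2.08 and −2.15 in aged replicates 1 to 4, against −2.16, −2.47, −2.36 and −2.19 in young replicates 1 to 4 (A_44_P241018). Aged replicate 2 was the highest array, and young replicates 1 and 4 lay among the aged values. The means were −2.05 ± 0.18 in aged and −2.29 ± 0.15 in young cells (SD, n = 4 each), a difference of 0.24 ± 0.13 (SE) that turned to −0.21 with spike-in scaling. It lay above the median gene of 0.11 under the reported scaling and above that of −0.35 under spike-in scaling.

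Aco1 encodes the other iron regulatory protein, which acts as an aconitase when it holds an iron-sulfur cluster. It read −0.11, 0.18, 0.07 and 0.44 in aged replicates 1 to 4, against 0.63, 0.12, 0.21 and 0.003 in young replicates 1 to 4 (A_42_P548118). The groups overlapped over most of their range. The means were 0.15 ± 0.23 in aged and 0.24 ± 0.27 in young cells (SD, n = 4 each), a difference of −0.10 ± 0.17 (SE) that was 0.06 with median scaling and 0.03 without young replicate 1. The SD over its 10 spots per array was 0.04 to 0.09 (log2), which covers spot noise only.

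**Figure D3:**
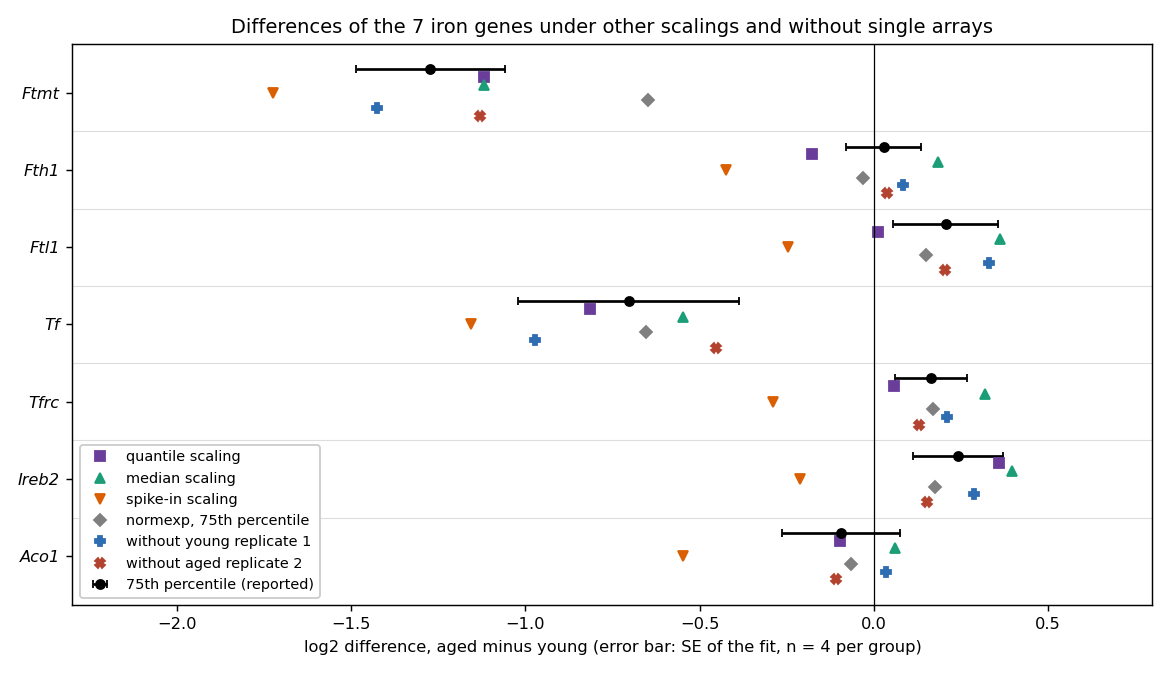
Log2 difference, aged minus young, of each of the 7 iron genes under the reported 75th percentile scaling (black, with the SE of the fit, n = 4 per group), under other scalings and background correction, and without 1 array. Ftmt and Tf lie left of 0 in every setting drawn, while spike-in scaling moves all 7 genes to the left, to −0.42 for Fth1 and −0.29 for Tfrc.

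Spike-in scaling moved all genes. The spike-in probes averaged 1.64 to 2.04 above the 75th percentile on aged arrays and 1.07 to 1.78 on young arrays, so that scaling to them turned the median of all genes to −0.35. All 7 iron genes had a negative difference there. Set beside −0.35, Ftmt (−1.72), Tf (−1.16), Aco1 (−0.55) and Fth1 (−0.42) lay below the median gene, and Ftl1 (−0.25), Tfrc (−0.29) and Ireb2 (−0.21) above it. Fth1 also lay below the median gene under the reported scaling, as did Aco1.

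Within the ages, Tfrc and Fth1 were among the steadiest of the genes tested and Tf among the least steady. The SD pooled over both ages was 0.097 for Tfrc, which exceeded that of 3.45% of genes, and 0.11 for Fth1, which exceeded that of 6.61%. It was 0.17 for Ireb2, 0.22 for Ftl1 and 0.25 for Aco1, around the median of 0.21 over all genes. It was 0.34 for Ftmt and 0.53 for Tf, above 79.9% and 90.0% of genes.

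The genes most like each of the 7 in their values over the 8 arrays were taken by Pearson r among 10234 genes, with no test and with arrays that share a slide and the split by age. Ftmt was closest to Mras (r = 0.994), a Ras-related GTPase, then to Zbtb22 and Zfp521 (0.989 each). Tf was closest to Car2, a carbonic anhydrase, and Smcp, a protein of the sperm mitochondrial capsule (0.996 each), then to C7h12orf54 (0.996). Tfrc was closest to Man2b1 and Trappc5 (0.992 each) and Ccdc102a (0.990). Ftl1 was closest to Pptc7 (0.985), Tmem30b and Zmynd19 (0.980 each). Ireb2 was closest to Maip1 (0.991), Tmem9 (0.944) and Nudt17 (0.935), and Aco1 to Dchs1 (0.973), Myh7 (0.972) and Cmip (0.970). Fth1, which hardly varied, was closest to Arhgef37 (0.952), Mrpl44 (0.935) and Chac2 (0.924). The best of this many genes has a high r by selection.

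Other genes of iron handling were listed by role and tested in the same limma fit. Of 80 listed genes 60 were tested, 14 were below the filter on dim probes and 6 had no named probe. Over all genes tested, 1 of the 60 rose in aged cells and 0 fell, against 0.498% of all genes called higher and 0.156% called lower. The median difference of the 60 was 0.18, beside 0.11 for all genes. There were 42 positive and 18 negative differences, and 38 of the 60 lay above the median of all genes. An unadjusted p under 0.05 was reached by 3217 of all 10236 genes tested and by 21 of the 60. Groups did not overlap for 11 genes as higher and 1 as lower, while the shares over all genes were 10.2% and 4.12%. Without young replicate 1, limma called 21 of the 60 higher and 7 lower, against 22.3% and 14.6% of all genes.

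The called gene was Nfu1, which delivers iron-sulfur clusters to mitochondrial enzymes. It read −3.37, −3.29, −3.31 and −3.16 in aged replicates 1 to 4, against −4.05, −3.73, −4.08 and −4.15 in young replicates 1 to 4. The groups were separated, and the difference was 0.72 ± 0.12 (SE, n = 4 per group, limma adjusted p = 0.0465). It was called in 11 of 23 alternatives, with adjusted p from 0.00723 to 0.338. Of the 25 tested genes of mitochondrial iron and iron-sulfur cluster assembly 23 had a positive difference, and 21 lay above the median of all genes (0.11). The median of this list was 0.24. Of the marker lists, that of spermatocytes also had mostly positive differences, as given above with its 8 calls, and its part in this median was not tested. Fdxr, the reductase that feeds electrons to mitochondrial ferredoxins (0.59 ± 0.13, adjusted p = 0.0561), and the cluster-binding Cisd1 (0.39, 0.0801) and Isca2 (0.32, 0.0801) followed, all 3 chosen after their values were seen. Isca1, named in the same way, was the lowest of the list (−0.68 ± 0.28, adjusted p = 0.143), and its sign depended on the probe, with 0.02 for its least variable probe.

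Genes of iron import, export and plasma iron proteins had mostly negative differences. Of 15 tested, 10 had a negative and 5 a positive difference. An unadjusted p under 0.05 was reached by 8 of them, against 3217 of all 10236 genes tested. Of the 15, 0 were called, and their median was −0.31. That median moved with single arrays and with the filter on dim probes. It was −0.07 without aged replicate 2, −0.14 without young replicate 3, −0.16 without young replicate 4, −0.55 without aged replicate 1 and −0.71 without young replicate 1, and −0.03 over genes well above background on all arrays. Slc40a1, the iron exporter ferroportin, read −3.55, −4.18, −3.65 and −3.01 in aged replicates 1 to 4, against −3.21, −2.28, −1.91 and −1.97 in young replicates 1 to 4. Only young replicate 1 lay among the aged values. The difference was −1.25 ± 0.32 (SE, n = 4 per group, limma adjusted p = 0.0652), and −1.54 without young replicate 1 (adjusted p = 0.00613). In that setting 36.9% of all genes tested were called. Slc40a1 was called in 4 of 23 alternatives, with adjusted p from 0.00613 to 0.314. The siderophore-binding Lcn2 (−1.19 ± 0.33, adjusted p = 0.0722) and the ferroxidase Heph (−0.66, 0.0820) were next. Without young replicate 1 both were called (−1.52, adjusted p = 0.00399, and −0.71, adjusted p = 0.0391). Lcn2 was called in 4 of 23 alternatives, with adjusted p up to 0.327, and Heph in 2, with adjusted p up to 0.383. Slc22a17, a receptor for Lcn2, had the opposite sign (0.85 ± 0.19, adjusted p = 0.0561) with separated groups.

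Macrophages are cells that recycle iron. All 9 tested of their 12 markers had a negative difference, 0 were called and Itgam was not well above background on any array. Their summed signal was 3.29 to 11.7 in aged and 4.54 to 16.5 in young cells, and it overlapped between the ages. Red blood cell markers summed to 3.996 to 7.05 in aged and 4.997 to 7.03 in young cells, with Hba-a3 and Epb42 not well above background on any array. The part of either cell type in the values of Slc40a1, Tf or Tfrc was not tested.

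Of the genes for iron sensing, systemic control and ferritin turnover 7 of 15 were tested, and 0 were called. Ncoa4, the receptor that carries ferritin to lysosomes, read −1.65, −1.86, −1.45 and −1.42 in aged replicates 1 to 4, against −1.32, −0.77, −0.51 and −0.49 in young replicates 1 to 4. The groups were separated by a narrow gap to young replicate 1. The difference was −0.83 ± 0.20 (SE, n = 4 per group, limma adjusted p = 0.0566), and −1.01 without that array (adjusted p = 0.00384). Without that array 36.9% of all genes tested were called. Ncoa4 was called in 4 of 23 alternatives, with adjusted p up to 0.332. Pcbp2, of the family of iron chaperones that load ferritin, had a difference of 0.61 ± 0.15 (adjusted p = 0.0565), and 0.72 without young replicate 1 (adjusted p = 0.00709). It was called in 5 of 23 alternatives, with adjusted p up to 0.471. The stress-responsive factor Nfe2l2, which controls ferritin transcription, had a smaller difference (0.20, adjusted p = 0.232).

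All 13 heme genes were tested, 0 were called, 9 had a positive difference and 8 lay above the median of all genes. The median of this list was 0.21. That median was 0.12 without aged replicate 4, close to the 0.11 of all genes. The 4 with the smallest p, all enzymes of heme synthesis, were Cpox (0.35, limma adjusted p = 0.112), Fech (0.26, 0.117), Ppox (0.25, 0.164) and Urod (0.28, 0.198). With spike-in scaling all 4 had a negative difference, from −0.20 to −0.10, above the median gene of −0.35.

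**Figure D4:**
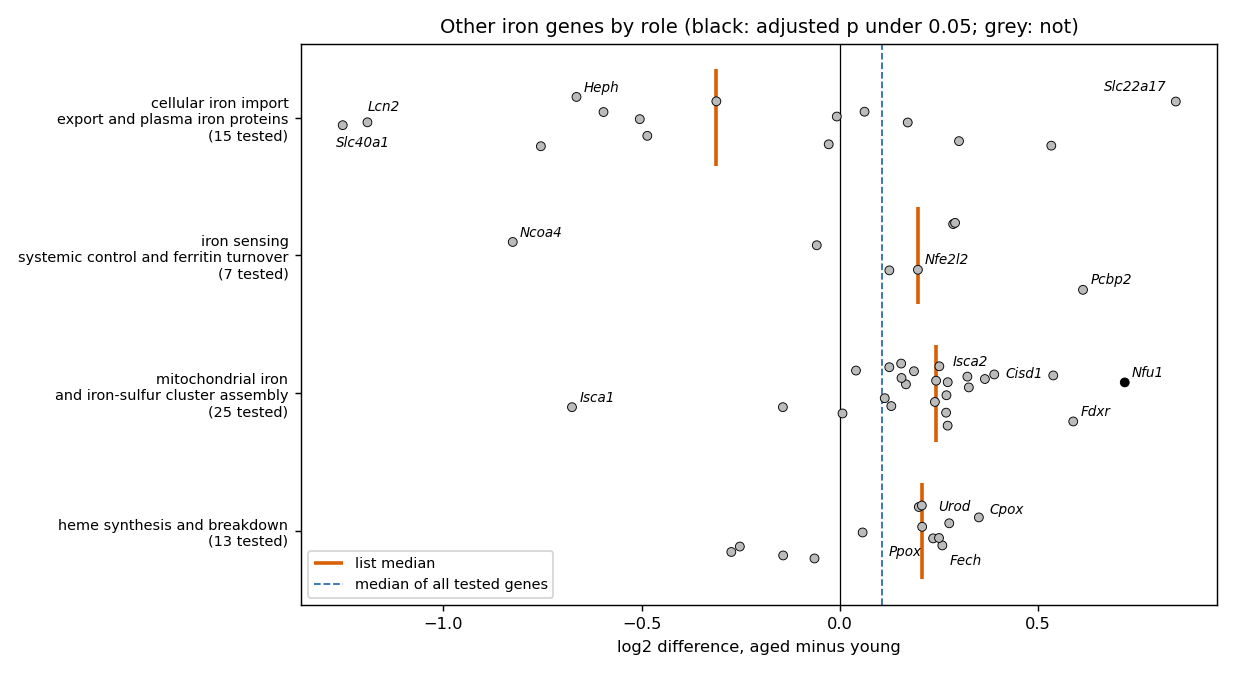
Log2 difference, aged minus young, of the 60 other iron genes tested, by role, with a point per gene, the list median as an orange bar and the median of all genes tested (0.11) as a dashed line. Nfu1, in black, is the 1 gene called by limma, the import and export genes have a median of −0.31 (−0.71 to −0.07 when 1 array is left out), and the other 3 lists have medians of 0.20 to 0.24 (0.12 to 0.33 when 1 array is left out).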

How the data were processed

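RNA of CD9-positive testis cells from 4 aged and 4 young samples was measured on one-colour arrays. The file headers name Feature Extraction 10.7.3.1 by Agilent and probes designed on rn4, whereas the submitters' processing notes give version 12.5. The processed signal as deposited is a linear intensity, and the deposited median spot and background signals are raw intensity values. The authors' series table holds log2 values of 30505 probes, each with a median of 0 over the arrays, and its column medians were −0.02, 0.05, 0.07 and −0.003 for aged replicates 1 to 4 and 0.09, −0.07, −0.14 and −0.06 for young replicates 1 to 4. Its differences between arrays equalled those of the log2 processed signals up to a constant per array, within 0.006 of the 75th percentile scaling, which settled its scale, centring and direction.

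Control and outlier spots were left out, spots of a probe were averaged on the log2 scale, and the 75th percentile over probes was subtracted. Probes were named through the RefSeq gene table of GRCr8, which matched 17998 probes and left 12369 unnamed. The filter required a share of 0.5 of a probe's spots to be well above background on each array of 1 group or both, and 2 or more values per group, and the probe with the highest mean stood for a gene. No spot was saturated. Aged and young arrays were compared with limma 3.58.1 in R 4.3.3 (lmFit and eBayes, two-sided, Benjamini-Hochberg over 10236 genes), and all adjusted p-values come from it. The steps were tested on simulated data. Figures were drawn with matplotlib 3.10.9.

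The 7 genes, the gene lists, the markers and the alternatives were chosen with earlier results of these data known. Named from each list were its called genes or, with none called, the 4 with the smallest p, except for 1 gene that is not reported here. The likeness rule took 3 genes for each of the 7. Same-numbered arrays correlated at −0.26, −0.12, 0.44 and 0.35 in their deviations from the group means, so the numbers were not taken as pairs. With no statement that arrays came from separate animals, p-values measure the spread between these arrays, and their number limits the precision. The scanner output lacks a mean spot signal, so normexp used the median spot and background signals. Spike-in scaling used 4 control probes with signals above 100 on all arrays. No coordinates other than those of the printed sequences were used.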

Additional observations from a re-analysis of the deposited data

Results flagged for a closer look

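Of 46 groups of 4 arrays examined for the 7 genes and the other named iron genes, 3 held an array set far apart from the rest, and chance alone marks about 1 group in 20. Tf in aged replicate 2 was 0.57, against 1.56 to 1.58 on the other aged arrays (gap over range 0.979). Nfe2l2 in young replicate 1 was 1.14, and the other young arrays lay at 0.86 to 0.87 (0.963). Ppox in young replicate 1 was −1.56, where the others lay at −1.83 to −1.80 (0.890).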

How the results depend on the processing

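Ftmt and Tf kept a negative difference in all 23 alternatives, and the signs of the other 5 genes did not hold in all of them. For Ftmt and Tf, changes to only the filter, the choice among probes, the replicate block or the eBayes options could not alter the difference. Differences that moved by more than the SD within ages were those of Ftmt with spike-in scaling (−1.72) and with normexp before 75th percentile (−0.65) or quantile scaling (−0.60), Fth1 with median (0.18), quantile (−0.18), spike-in (−0.42) and normexp quantile scaling (−0.23), Ftl1 with spike-in (−0.25) and normexp quantile scaling (−0.042), Tfrc with median (0.32), quantile (0.059) and spike-in scaling (−0.29), Ireb2 with spike-in scaling (−0.21) and Aco1 with spike-in scaling (−0.55). Leaving out 1 array gave −1.43 to −1.13 for Ftmt, −0.02 to 0.08 for Fth1, 0.11 to 0.33 for Ftl1, −0.97 to −0.45 for Tf, 0.13 to 0.21 for Tfrc, 0.15 to 0.29 for Ireb2 and −0.19 to 0.03 for Aco1. In limma, 67 genes were called in all, against 1330 with median scaling, 0 without scaling (1389 genes reached an unadjusted p under 0.05), 958 with spike-in scaling, 630 and 253 with normexp and 75th percentile or quantile scaling, 0 when dim probes were kept (3339), 107 with the least variable probe, 270 with trend and robust eBayes and 0 to 3776 without 1 array, the highest without young replicate 1. With the replicate number as a block (replicate block) the number was 0 (3231 with an unadjusted p under 0.05). The share of calls that were higher in aged cells was 76.1%, against 56.7% of 97 calls with the 75th percentile over spots (chosen after seeing the data), 57.6% with normexp and 75th percentile scaling, 86.6% with normexp and quantile scaling, 60.4% without young replicate 1 and 0.626% with spike-in scaling. Of the 60 other iron genes, 8 were called higher and 3 lower with median scaling, 3 and 3 with normexp and 75th percentile scaling, 2 higher with normexp and quantile scaling, 4 higher with trend and robust eBayes, and 0 higher and 6 lower with spike-in scaling. None was called without scaling (8 had an unadjusted p under 0.05), with dim probes kept (19) or with the replicate block (18), and without 1 array 0 to 21 were called higher and 0 to 7 lower. Reversed signs were those of Nfe2l2 (−0.26), Isca2 (−0.13), Cisd1 (−0.063), Urod (−0.18), Cpox (−0.10), Ppox (−0.20) and Fech (−0.19) with spike-in scaling and Isca1 (0.022) with the least variable probe. The medians of the iron lists moved by over 1.5 times for import, export and plasma proteins with median (−0.16), quantile (−0.14), spike-in (−0.76) and both normexp settings (−0.12 and −0.08) and over genes well above background on all arrays (−0.03). They did so for sensing and turnover with median (0.35), quantile (0.31) and spike-in scaling (−0.26) and with dim probes kept (0.05), for mitochondrial genes with median (0.40), quantile (0.15), spike-in (−0.21) and normexp quantile scaling (0.13), and for heme genes with median (0.36), quantile (0.12), spike-in (−0.25) and normexp quantile scaling (0.09). The causes were not tested. Dim signals, such as those of Ftmt, Nfu1 and Slc40a1, limit what can be said of the size of a difference.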
